A study of Arabidopsis thaliana with 72 samples.

Results

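Cytochrome P450 genes of Arabidopsis thaliana carry symbols built from CYP, a family number, a subfamily letter and a gene number. A gene was taken where a probe set paired with that gene alone had a symbol of exactly this form, and for each gene the probe set with the highest mean was to be used. Of 225 genes with such a symbol in the gene table, 22 were measured in this way, among 13350 genes with a probe set of their own and 22746 probe sets in all. Of the probe sets, 8730 were paired with no gene, so other P450 genes may be on the array unnamed. The measured genes are 18 of the 35 CYP71B genes of the gene table, with CYP51G2, CYP78A9, CYP79A2 and CYP84A4, so 5 of 40 families are covered and the values below describe mainly the CYP71B subfamily. Each of the 22 genes had exactly 1 probe set.

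Cytochrome P450s are haem enzymes that use electrons from a reductase to insert oxygen into small molecules. In plants they shape hormones, sterols, pigments, lignin, glucosinolates and defence compounds, and related genes often lie side by side in tandem arrays. CYP71B6 makes indole-3-carboxylic acid from indole-3-acetonitrile, CYP79A2 turns phenylalanine into the oxime that leads to benzylglucosinolate, CYP84A4 takes part in making the alpha-pyrones called arabidopyrones, and CYP78A9 promotes growth of floral organs, fruits and seeds. CYP71B31 oxidises linalool in flowers, and CYP51G2 is a relative of the sterol 14-demethylase. Most of the other CYP71B enzymes have no established substrate.

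The study set 6 lines that contrast in growth at low nitrogen side by side on Affymetrix arrays. There were 2 accessions, El-0 and Fei-0, and 4 recombinant inbred lines that the labels call mixed RILs, namely SG063, NG087, NG064 and KB006. Plants grew for 21 days on vertical agar plates with 1% sucrose and either 9 mM nitrate, given as potassium and calcium nitrate and called sufficient here, or 0.4 mM nitrate, given as calcium nitrate with potassium chloride in place of potassium nitrate and called low. Shoots and roots were taken apart, and every combination of line, organ and supply had 3 replicates, which makes 24 groups and 72 arrays. A replicate was a pool of 30 plants from 3 plates per the labels, which also give a number of seeds per dish that does not account for 30 plants. No line carries a transgene or an induced mutation in the labels, and each recombinant line is 1 inbred genotype.

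On 68 of the 72 arrays the whole profile was closest to the condition on its own label. The 4 arrays labelled Fei-0 replicate 3 each matched another organ or supply better than their own: that labelled shoot at low nitrate was closest to shoot at sufficient nitrate, that labelled shoot at sufficient nitrate matched root at low nitrate, that labelled root at low nitrate matched root at sufficient nitrate, and that labelled root at sufficient nitrate matched shoot at low nitrate. All values below leave these 4 arrays out, so Fei-0 groups have 2 replicates, other groups 3, and each organ and supply has 17 arrays. Results with all 72 arrays are given where they change the call of a mean response, an organ difference or an F test. The organ labels of the 68 arrays matched their markers: the mean of 9 shoot markers lay at 11.63 to 13.52 in shoots and at 3.62 to 8.96 in roots, and that of 6 measured root markers of 15 at 9.47 to 11.62 in roots and at 6.60 to 8.58 in shoots. The nitrate transporter gene NRT2.5, a marker of nitrate shortage, was 5.73 higher at low nitrate in shoots and 1.37 higher in roots on the log2 scale.

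All levels are deposited log2 values, in which a difference of 1 is 2-fold. The lowest value of the table, 2.11, acts as a floor, and a difference against a group at the floor is likely to be an underestimate. Levels are compared within a gene alone, since probe sets differ in brightness. A gene was called at an adjusted p below 0.05 (limma, Benjamini-Hochberg over all 22746 probe sets), errors of differences are standard errors (SE), and p-values measure the spread between pools. In whole organs, fewer cells of a type and less RNA per cell cannot be told apart.

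Of the 22 genes, 6 stayed within 0.5 of the floor on all 68 arrays. Their highest values were 2.19 for CYP71B27 (AT1G13070), 2.17 for CYP71B21 (AT3G26190), 2.32 for CYP71B25 (AT3G26270), and 2.11 for CYP71B31 (AT3G53300) and CYP79A2 (AT5G05260). CYP71B16 (AT3G26150) was the last of these 6 genes. The benzylglucosinolate gene and the floral linalool oxidase gene were thus at the floor in shoots and roots of every line at both supplies. CYP71B27 is listed as a transcribed pseudogene. CYP71B38 (AT3G44250) and CYP51G2 (AT2G17330, also listed as a transcribed pseudogene) were at or near the floor on most arrays, with highest values of 3.23 and 4.30, and the remaining 14 genes were above it in at least 1 organ.

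**Figure D1:**
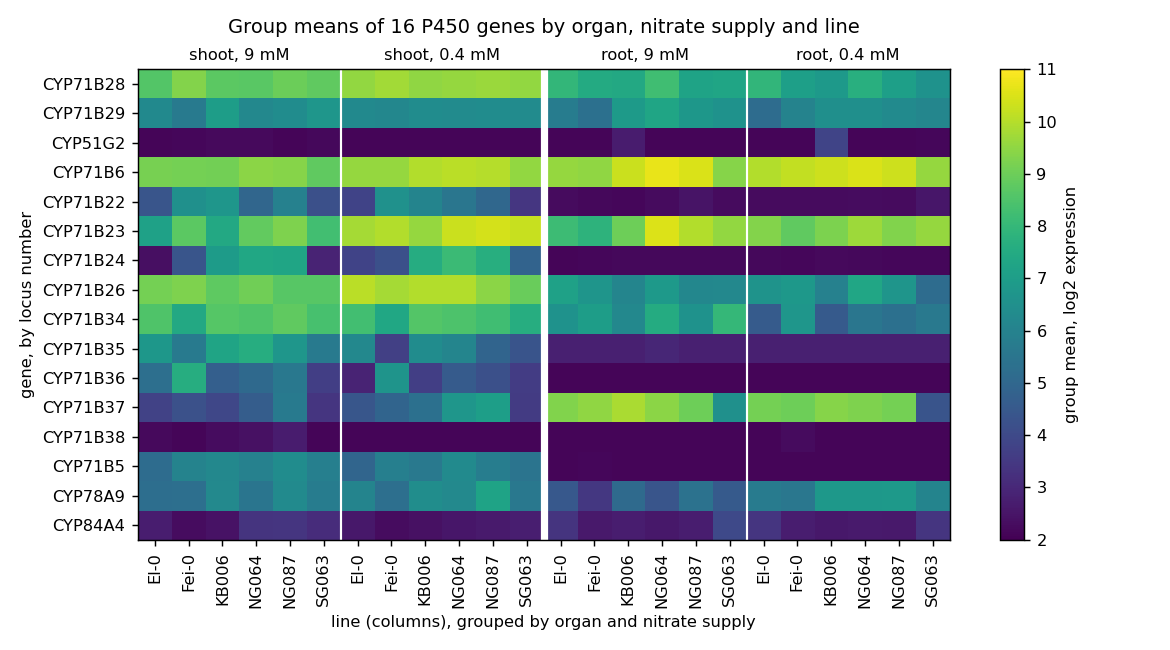
Mean log2 level of the 16 cytochrome P450 genes not near the floor on all arrays, in 24 groups of line, organ and nitrate supply (colour scale in log2, n = 3 arrays a group and n = 2 for Fei-0). CYP71B36, CYP71B5 and CYP71B24 are at or close to the floor of 2.11 in every root group, and CYP71B37 is bright in the roots of 5 lines and dimmer in SG063.

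Organ was the first comparison the design allowed. At sufficient nitrate 11 of the 22 genes were higher in shoots and 3 higher in roots, where 67.3% of all probe sets differed (28.4% higher in shoots, 38.8% higher in roots). A 2-fold difference or more was called for 10 of the 22, against 29.9% of all probe sets. The median difference, shoot minus root, was 0.02 over the 22 genes and 0.00 over all probe sets.

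**Figure D2:**
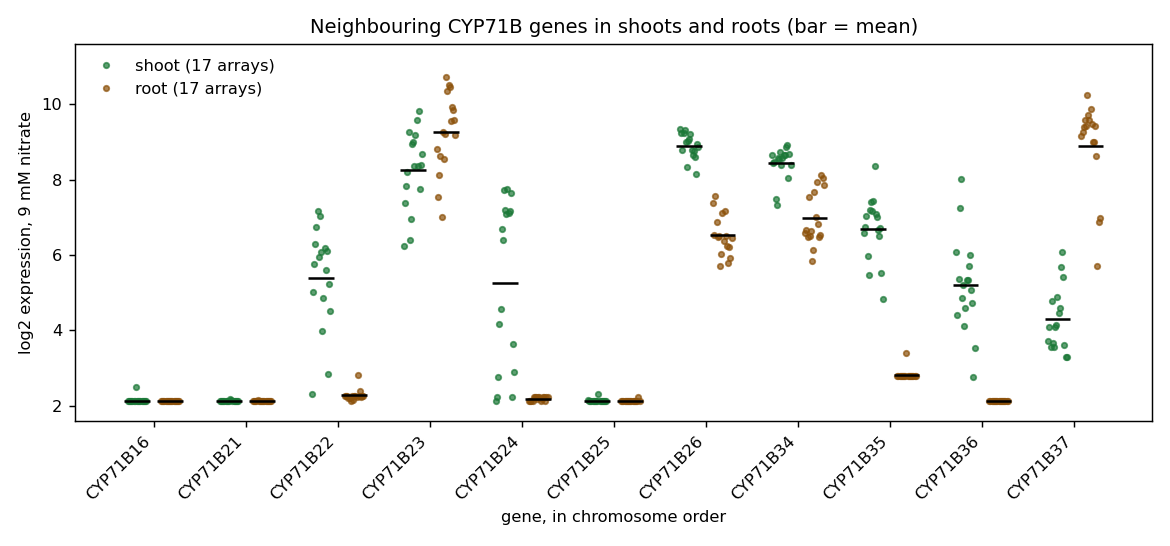
Log2 level of the 11 measured CYP71B genes of the chromosome 3 stretch in gene order, on 17 shoot and 17 root arrays at 9 mM nitrate (points are arrays, bars are means). In roots CYP71B24 and CYP71B36 lie at or close to the floor, CYP71B22 and CYP71B35 reach no more than 2.82 and 3.40, CYP71B37 is higher in roots, and CYP71B16, CYP71B21 and CYP71B25 are at the floor in both organs.

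A stretch of chromosome 3 showed the range of organ patterns among close relatives. In the gene table, 25 entries run from CYP71B16 (AT3G26150) to CYP71B37 (AT3G26330), 18 of them CYP71B genes and 11 of these measured. CYP71B34 (AT3G26300), CYP71B35 (AT3G26310), CYP71B36 (AT3G26320) and CYP71B37 follow each other with no gene between them, as do CYP71B21, CYP71B22 (AT3G26200) and CYP71B23 (AT3G26210). Over the 11 genes the median shoot minus root difference was 1.39 at sufficient nitrate and 2.16 at low nitrate, with 6 called higher in shoots and 2 higher in roots at sufficient nitrate.

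CYP71B37 was the most root-weighted of the 22 genes. At sufficient nitrate its lowest, median and highest values were 3.30, 4.09 and 6.07 on the 17 shoot arrays and 5.70, 9.40 and 10.24 on the 17 root arrays. The 2 ranges met only because the SG063 roots were low, as described below. The level was 25.1-fold higher in roots (shoot minus root -4.65 ± 0.17 SE, adjusted p = 2.09e-28, limma), and 8.26-fold higher at low nitrate.

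Its neighbours CYP71B35 and CYP71B36 were shoot genes. CYP71B35 ranged from 4.84 to 8.36 in shoots, with a median of 6.73, and was at 2.77 on most root arrays, which is the lowest value this probe set took. The groups did not overlap, and shoots were higher by 3.82 ± 0.12 SE (14.1-fold, adjusted p = 2.45e-31, limma). CYP71B36 ranged from 2.75 to 8.00 in shoots, with a median of 5.20, and was at the floor of 2.11 on all root arrays, a difference of 3.22 ± 0.16 SE (adjusted p = 4.6e-23, limma).

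CYP71B34, the gene next to them, was bright in both organs, at 7.34 to 8.93 in shoots and 5.84 to 8.12 in roots, and was higher in shoots by 1.39 ± 0.10 SE. CYP71B26 (AT3G26290), which lies just before CYP71B34 among the measured genes, did not overlap between organs. It ranged from 8.14 to 9.34 in shoots and from 5.71 to 7.56 in roots, a difference of 2.39 ± 0.12 SE (5.25-fold, adjusted p = 1.69e-22, limma).

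CYP71B24 (AT3G26230) and CYP71B22 were close to their lowest values in roots. CYP71B24 lay at 2.11 to 2.22 on all root arrays and at 2.11 to 7.76 in shoots (difference 3.03 ± 0.14 SE). CYP71B22 lay at 2.12 to 2.82 in roots and at 2.30 to 7.17 in shoots (difference 3.19 ± 0.24 SE). In both genes the shoot arrays close to the root level came from particular lines, described below. CYP71B23, next to CYP71B22, was bright in both organs and was the only gene called in opposite directions at the 2 supplies: 0.89 ± 0.20 SE higher in roots at sufficient nitrate (adjusted p = 8.01e-05, limma) and 0.73 ± 0.20 SE higher in shoots at low nitrate (adjusted p = 0.00103, limma).

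Outside the stretch, CYP71B5 (AT3G53280) had median values of 6.05 in shoots and 2.11 in roots, with no root array above 2.19. Shoots were higher by 3.82 ± 0.10 SE (adjusted p = 4.09e-34, limma). CYP71B28 (AT1G13090) was 2.37-fold higher in shoots, while CYP71B29 (AT1G13100), the gene next to it, had medians of 6.29 in shoots and 6.59 in roots and was not called. With all 72 arrays CYP71B29 was called as higher in shoots at low nitrate (0.26) and in the organ by nitrate difference (0.38). CYP71B6 (AT2G24180), the indole-3-carboxylic acid gene, was bright in both organs and 1.79-fold higher in roots, with values of 8.50 to 9.61 in shoots and 9.16 to 11.08 in roots at sufficient nitrate. CYP78A9 (AT3G61880) was higher in shoots by 1.16 ± 0.18 SE at sufficient nitrate, while the shoot minus root difference at low nitrate was -0.16 and not called. The remaining calls at sufficient nitrate, CYP71B38 (0.19) and CYP71B27 (0.01), were between values at or near the floor.

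At low nitrate 9 of the 22 genes were higher in shoots and 4 in roots, against 62.6% of all probe sets called (25.7% higher in shoots, 36.8% higher in roots). After centring of arrays on their medians the split was 9 and 9, against 24.2% and 53.6% of all probe sets. CYP71B24 (3.85), CYP71B5 (3.56), CYP71B26 (3.27), CYP71B22 (2.75), CYP71B34 (2.70), CYP71B28 (2.39) and CYP71B36 (2.16) were more than 2-fold higher in shoots on the log2 scale, and CYP71B35 was 5.64-fold higher there. CYP84A4 (AT5G04330), the arabidopyrone gene, and CYP71B6 were each 0.35 higher in roots, and CYP51G2 was 0.30 higher there.

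The nitrate comparison asked which genes differed between low and sufficient supply, as the mean of the 6 lines with equal weight. In shoots 12 of the 22 genes changed, 7 upward and 5 downward, against 49.9% of all probe sets called (28.0% up, 21.9% down). A change of 2-fold or more was called for 4 genes, 2 in each direction, against 13.0% of all probe sets. The median response was -0.01 over the 22 genes and 0.00 over all probe sets. Array medians in shoots were 0.18 higher at low nitrate, and after such centring the calls were 6 up and 14 down, floor genes among them. Over all probe sets that setting called 20.4% up and 57.7% down.

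**Figure D3:**
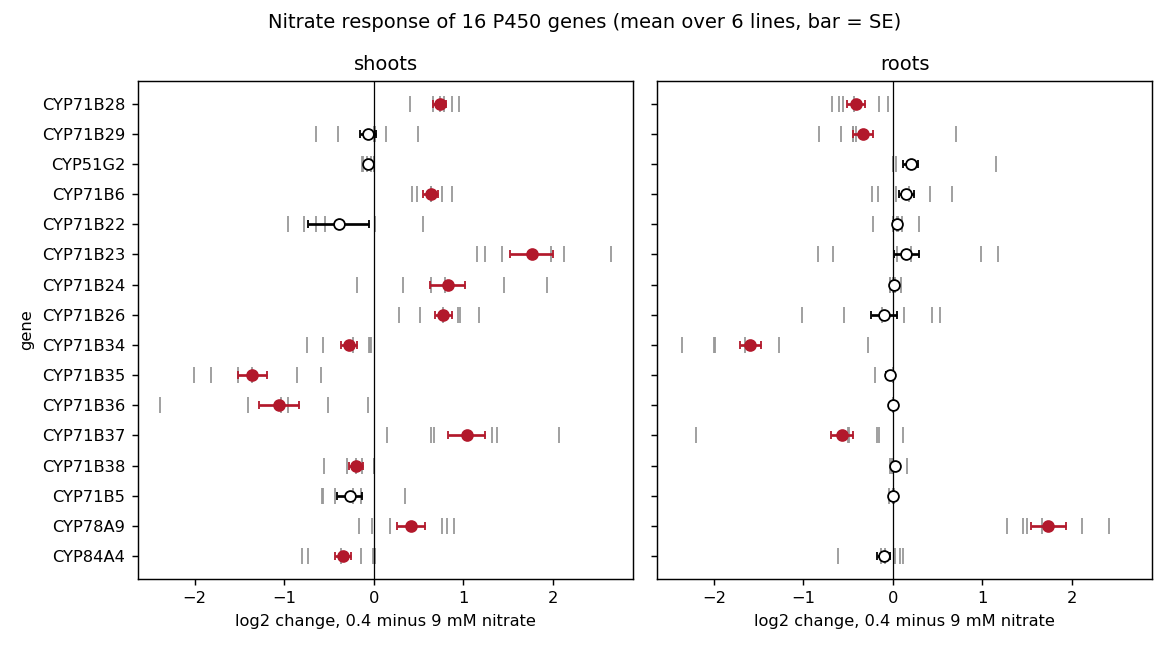
Mean low minus sufficient difference (log2) in shoots and roots of the 16 genes not near the floor on all arrays, over 6 lines (bars are SE, grey ticks are the 6 lines, filled red points are called at adjusted p below 0.05, limma). CYP71B23 rose by 1.76 in shoots, CYP78A9 rose by 1.74 in roots and CYP71B34 fell by 1.59 in roots.

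CYP71B23, a CYP71B enzyme of unknown substrate, rose most in shoots. Its lowest, median and highest values were 6.25, 8.35 and 9.82 at sufficient nitrate and 8.72, 10.22 and 10.79 at low nitrate. The ranges overlapped over all lines, and also within Fei-0 (8.21 and 9.27 at sufficient, 10.79 and 9.17 at low nitrate) and KB006 (6.41, 6.96 and 8.95 at sufficient, 9.81, 8.72 and 10.16 at low nitrate). In the other 4 lines every low array was above every sufficient array, as in El-0, where 6.25, 7.38 and 7.83 became 10.22, 9.66 and 9.52. The mean rise was 1.76 ± 0.24 SE (3.40-fold, adjusted p = 1.04e-06, limma), the 6 lines gave 1.16 to 2.65, all upward, and the rise was called in El-0, KB006 and SG063. The calls within KB006 and SG063 were each lost without 1 array.

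Among the genes of known role, CYP71B6 rose in shoots by 0.64 ± 0.08 SE (adjusted p = 6.62e-07, limma), from a median of 9.12 to 9.78. Every line was higher at low nitrate, by 0.43 to 0.88, and the rise was called in 4 lines. CYP78A9 moved from a median of 5.79 to 6.27 in shoots, a rise of 0.41 ± 0.16 SE (adjusted p = 0.0304, limma) with 4 of 6 lines upward. This call was lost when any 1 of 7 arrays was left out (adjusted p up to 0.103) and when arrays were centred or quantile normalised (0.23 and 0.22). CYP84A4 was faint, at 2.11 to 4.03 at sufficient and 2.11 to 2.87 at low nitrate, and fell by 0.34 ± 0.09 SE (adjusted p = 0.00304, limma).

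CYP71B28 and CYP71B26 rose too. CYP71B28 went from 8.17 to 9.43 at sufficient to 9.26 to 9.92 at low nitrate, a rise of 0.74 ± 0.08 SE (adjusted p = 1.87e-08, limma) called in 5 lines. CYP71B26 went from a median of 8.94 to 9.77, a rise of 0.78 ± 0.09 SE (adjusted p = 2.25e-07, limma) called in 4 lines. Both were upward in 6 of 6 lines, by 0.41 to 0.95 for CYP71B28 and by 0.29 to 1.18 for CYP71B26.

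The adjacent genes CYP71B34 to CYP71B37 did not move as one in shoots. CYP71B35 had values of 4.84, 6.73 and 8.36 (lowest, median, highest) at sufficient and 3.65, 5.56 and 7.26 at low nitrate, and fell by 1.36 ± 0.16 SE (2.56-fold, adjusted p = 1.7e-07, limma) with 6 of 6 lines downward. CYP71B36 had values of 2.75, 5.20 and 8.00 and then 2.30, 4.03 and 6.86, and fell by 1.06 ± 0.23 SE (adjusted p = 0.000351, limma). The 6 lines gave -2.38 to -0.06, all downward, and only the fall in El-0 was called alone. With all 72 arrays the CYP71B36 difference was -0.71 and not called.

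CYP71B37, the last of the row, rose in shoots from a median of 4.09 to 5.28 (1.04 ± 0.21 SE, 2.05-fold, adjusted p = 0.000153, limma). The lines gave 0.15 to 2.07, all upward, and NG064 and KB006 were called alone, the KB006 call being lost without any 1 of 5 arrays. CYP71B34 fell slightly, by 0.28 ± 0.09 SE, with a difference of -0.16, not called, with all 72 arrays. CYP71B24 rose by 0.83 ± 0.19 SE (adjusted p = 0.000912, limma) with 5 of 6 lines upward. CYP71B38 fell by 0.20 ± 0.07 SE between values near the floor, a call lost with array weights (-0.16). CYP71B22 (-0.39 ± 0.34 SE), CYP71B5 (-0.27 ± 0.14 SE), CYP71B29 (-0.06) and CYP51G2 (-0.06) were not called, nor were the 6 floor genes. Falls were called for CYP71B5 with centred and quantile normalised arrays (-0.45 in both) and for CYP71B29 (-0.25 and -0.23). With centred arrays CYP51G2 was called too (-0.24), near the floor.

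In the same shoots, 8 of 9 shoot markers fell at low nitrate, and of 6 root markers 0 rose and 3 fell. The mean log2 level of the 6 root markers ranged from 6.98 to 8.46 at sufficient and from 6.60 to 8.58 at low nitrate. CYP71B23, CYP71B37 and CYP71B6, the 3 genes that were higher in roots at sufficient nitrate, all rose in shoots. So did CYP71B24, CYP71B26, CYP71B28 and CYP78A9, which were higher in shoots at sufficient nitrate (3.03, 2.39, 1.24 and 1.16). CYP71B35, CYP71B36, CYP71B34 and CYP71B38 were also higher in shoots then (3.82, 3.22, 1.39 and 0.19) and fell in shoots at low nitrate. CYP71B5 and CYP71B22, higher in shoots too, were not called. The part of the marker shifts in the shoot responses was not tested.

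Root responses were fewer. There 5 of the 22 genes changed, 1 upward and 4 downward, against 42.8% of all probe sets called (23.6% up, 19.1% down). Many of the 22 genes were at or near the floor in roots. Among probe sets at 4 or more on at least 3 root arrays, 5 of 8 genes were called, against 62.4% of such probe sets. A change of 2-fold or more was called for 2 genes, against 6.56% of all probe sets. The median was 0.00 over both the 22 genes and all probe sets. With centred arrays the calls were 11 up and 4 down, floor genes among them, against 49.2% and 18.1% of all probe sets.

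**Figure D4:**
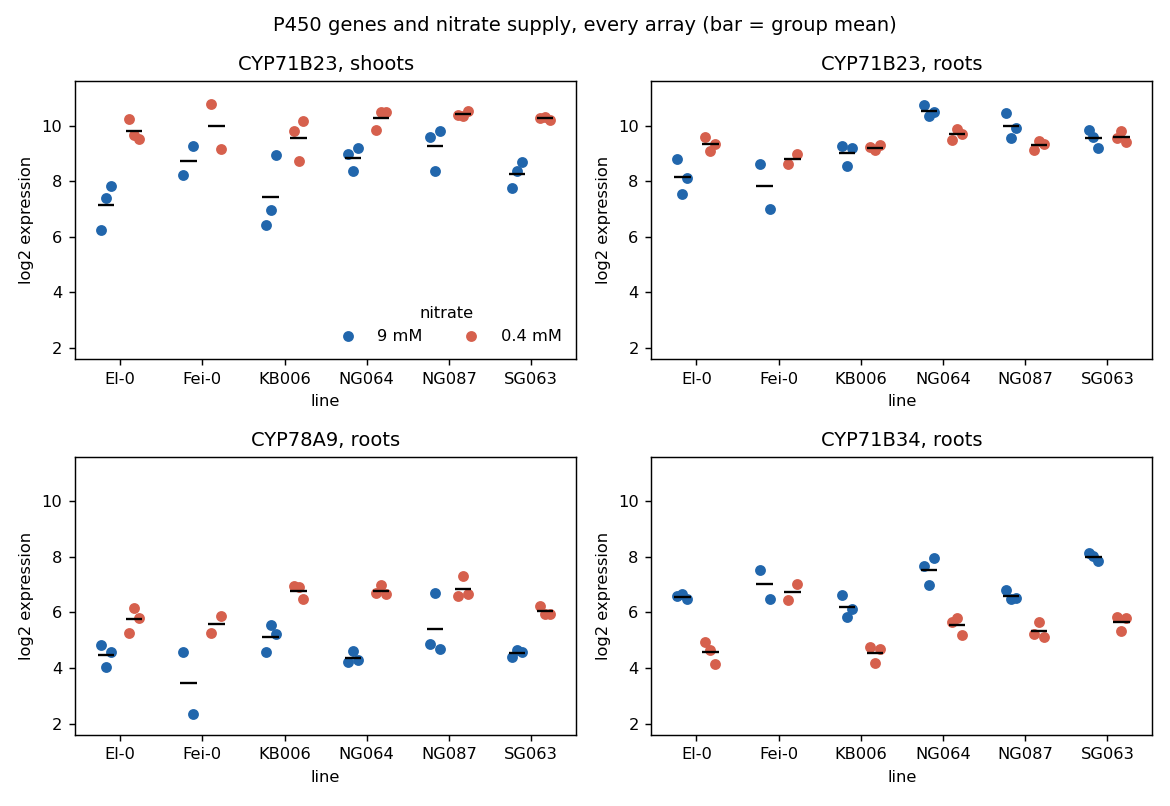
Log2 level on each array by line at 9 mM (blue) and 0.4 mM (red) nitrate for CYP71B23 in shoots and roots, CYP78A9 in roots and CYP71B34 in roots (bars are group means, n = 3 and n = 2 for Fei-0). CYP71B23 is higher at low nitrate in the shoots of all 6 lines and in roots it is higher in El-0 and, by mean, Fei-0 and lower by mean in NG064 and NG087, and CYP78A9 in roots is higher in all 6 lines.

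CYP78A9 was the 1 gene that rose in roots. At sufficient nitrate its root values were 2.37, 4.56 and 6.68 (lowest, median, highest) and at low nitrate 5.27, 6.47 and 7.32. Within each line all low arrays were above all sufficient arrays except in NG087, where sufficient arrays at 4.85, 6.68 and 4.68 met low arrays at 6.60, 7.32 and 6.65. The rise was 1.74 ± 0.19 SE (3.33-fold, adjusted p = 8.28e-08, limma), with 1.28 to 2.41 in the 6 lines. It was called in 5 lines, El-0 being the other, and the calls in Fei-0, KB006, NG087 and SG063 were lost when 1 to 3 single arrays were left out in turn.

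CYP71B34 fell most in roots, from values of 5.84, 6.65 and 8.12 to 4.14, 5.22 and 7.02. The fall was 1.59 ± 0.12 SE (3.01-fold, adjusted p = 1.14e-10, limma). In 5 lines every low array was below every sufficient array, as in SG063, where 8.12, 8.05 and 7.85 became 5.84, 5.33 and 5.79. Fei-0 did not separate, with 7.53 and 6.49 at sufficient and 6.44 and 7.02 at low nitrate.

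The adjacent pair CYP71B28 and CYP71B29 both fell in roots. CYP71B28 fell by 0.41 ± 0.10 SE (adjusted p = 0.00154, limma) from a median of 7.61 to 7.09, with 6 of 6 lines downward, and CYP71B29 fell by 0.33 ± 0.11 SE (adjusted p = 0.0183, limma) with 5 of 6 lines downward. The CYP71B29 call was lost without either of the Fei-0 replicate 1 root arrays. CYP71B37 fell by 0.57 ± 0.12 SE (adjusted p = 0.00051, limma), most of it in SG063, and its difference was -0.32 and not called with all 72 arrays.

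Shoot markers were lower in roots at low nitrate, 9 of 9 of them called, with a mean level of 7.28 to 8.96 at sufficient and 3.62 to 5.84 at low nitrate. Root markers were also lower there, 6 of 6 called, with mean levels of 10.67 to 11.62 and 9.47 to 10.72. Of the shoot-weighted genes, CYP71B34 and CYP71B28 fell in roots, CYP78A9 rose and CYP71B26 was not called (-0.10). Others were at or near their lowest values in roots. Of the root-weighted genes, CYP71B37 fell (-0.57) and CYP71B23 and CYP71B6 were not called (0.15 each). The part of the marker shifts in these results was not tested.

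The root genes not called were CYP51G2 (0.20, adjusted p = 0.0686, limma), CYP71B23 and CYP71B6 (0.15 each), CYP71B26 and CYP84A4 (-0.10 each) and those at or near their lowest value in roots. For CYP71B6, whose root values ranged from 9.16 to 11.08 at sufficient and 9.43 to 10.75 at low nitrate, the lines gave -0.24 to 0.66.

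Shoot and root responses were then set against each other in 1 fit. The response differed between organs for 12 of the 22 genes, 7 more upward in shoots and 5 more upward in roots, against 43.5% of all probe sets (24.5% and 19.0%). The difference of array medians was 0.22, and with centred arrays the calls were 7 and 13, against 16.1% and 55.4% of all probe sets. CYP71B23 and CYP71B37 had the largest positive differences, shoot response minus root response, of 1.61 ± 0.28 SE (adjusted p = 3.81e-06, limma) and 1.61 ± 0.24 SE (adjusted p = 3e-07, limma). They were followed by CYP71B34 (1.31), CYP71B28 (1.15), CYP71B26 (0.88), CYP71B24 (0.82) and CYP71B6 (0.49).

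CYP78A9 had a root response above its shoot response by 1.32 on the log2 scale (difference -1.32 ± 0.25 SE, adjusted p = 2.03e-05, limma). CYP71B28 and CYP71B37 were called in opposite directions, up in shoots and down in roots. For CYP71B35 (-1.32) and CYP71B36 (-1.06) the difference rests on roots at the lowest value of the probe set, where no fall can be seen, and for CYP71B36 it was -0.46 and not called with all 72 arrays. CYP51G2 (-0.26) and CYP71B38 (-0.22) differed between values near the floor.

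The line comparison asked how far the 6 lines differed, averaged over both supplies. In shoots 13 of the 22 genes differed between lines by the moderated F test, against 35.9% of all probe sets. Of these 13, 8 lie in the chromosome 3 stretch, which holds 11 of the 22 genes. In roots, where many of the 22 were at or near the floor, 10 of the 22 differed, against 56.0% of all probe sets. With dim probe sets left out, as for the root responses above, 8 of 8 genes differed in roots, against 80.5% of the probe sets kept. With dim probe sets left out in shoots, 12 of 13 genes differed, against 54.1% of the probe sets kept. A value here is the signal of a probe set in each line, and sequence differences between lines under the probes were not examined.

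**Figure D5:**
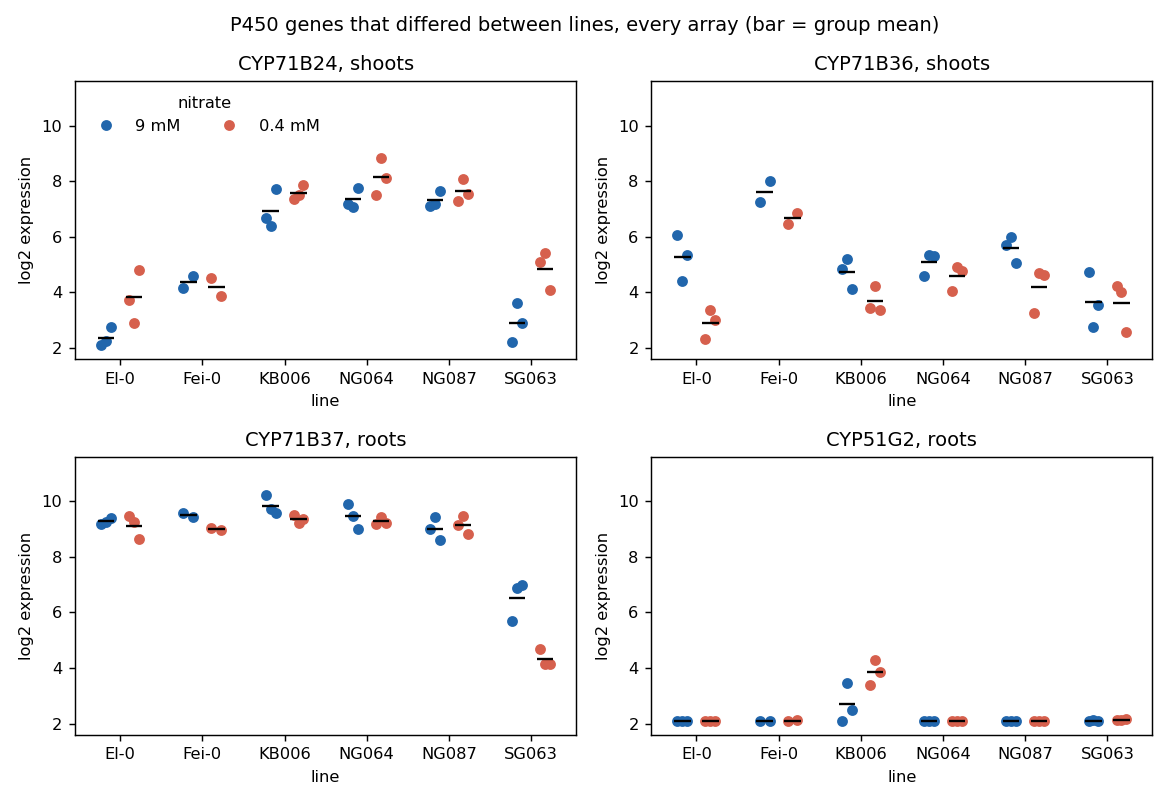
Log2 level on each array by line at 9 mM (blue) and 0.4 mM (red) nitrate for CYP71B24 and CYP71B36 in shoots and CYP71B37 and CYP51G2 in roots (bars are group means, n = 3 and n = 2 for Fei-0). KB006, NG064 and NG087 stand above the other lines for CYP71B24, Fei-0 is high for CYP71B36, SG063 is low for CYP71B37 and only KB006 leaves the floor for CYP51G2.

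CYP71B24 divided the shoots of the lines in 2 sets. Over both supplies its values were 6.40 to 7.86 in KB006, 7.09 to 8.82 in NG064 and 7.11 to 8.07 in NG087, against 2.11 to 4.82 in El-0, 3.86 to 4.58 in Fei-0 and 2.22 to 5.40 in SG063. The 2 sets did not overlap on any array (F = 81.3, adjusted p = 1.3e-11, limma). El-0 was 3.03 ± 0.25 SE below the mean of the other 5 lines, and NG064 2.55 ± 0.25 SE above.

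CYP71B36 was high in the shoots of Fei-0, at 6.46 to 8.00, and at 2.30 to 6.08 in the other lines. Fei-0 exceeded the mean of the other lines by 2.81 ± 0.35 SE (adjusted p = 3.59e-06, limma), and did not overlap with them on any array used. For the 2 neighbouring genes Fei-0 was low instead: CYP71B35 was 1.49 ± 0.25 SE below the other lines and CYP71B34 1.01 ± 0.13 SE below. CYP71B34 read 6.85 to 7.90 in Fei-0 shoots and 7.39 to 8.93 in the other lines, which overlap.

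CYP71B37 in shoots was 1.89 ± 0.27 SE higher in NG087 and 1.05 ± 0.27 SE higher in NG064 than in the other lines, and lower in SG063 (-1.59 ± 0.27 SE) and El-0 (-0.84 ± 0.27 SE). CYP71B22 in shoots was higher in Fei-0 (6.29 to 6.74) and KB006 (5.34 to 7.17) and lower in El-0 (2.26 to 5.77) and SG063 (2.72 to 5.22). The shoot calls of the F test also took in CYP71B26, CYP78A9, CYP84A4, CYP71B5, CYP71B29, CYP71B6 and CYP71B23, with F between 3.96 and 7.91. That of CYP71B23 (adjusted p = 0.0315, limma) was lost in 8 of 34 fits that each left out 1 array.

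SG063 shoots were lower than the other lines for 7 genes and higher for 0, where 10.2% of all probe sets were called, 5.17% higher and 5.01% lower. They were CYP71B24 (-2.09), CYP71B22 (-1.74), CYP71B37 (-1.59), CYP71B36 (-1.39), CYP71B35 (-1.13), CYP71B26 (-0.62) and CYP71B6 (-0.35), the first 6 of them in the chromosome 3 stretch. That stretch holds 11 of the 22 genes. A probe set shared by CYP71B20 and CYP71B19, outside the rule, was not low in SG063 shoots, as given below. With all 72 arrays 8 genes differed between lines in shoots instead of 13, against 25.2% of all probe sets. CYP71B22, CYP71B26, CYP71B6, CYP71B5 and CYP71B23 were then not called.

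In roots SG063 stood apart for CYP71B37. Its 3 arrays read 5.70, 6.87 and 6.98 at sufficient nitrate and 4.67, 4.15 and 4.14 at low nitrate, and all root arrays of the other lines were at 8.62 or above. SG063 was 3.88 ± 0.16 SE below the mean of the other lines (adjusted p = 5.98e-15, limma). In SG063 roots CYP71B26 (-0.96), CYP71B6 (-0.71) and CYP71B28 (-0.56) were also lower, while CYP84A4 (0.89) and CYP71B34 (0.76) were higher, against 25.6% of all probe sets called for this line (13.7% higher, 12.0% lower).

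CYP84A4 was close to its lowest values in the roots of 4 lines, at 2.48 to 2.91. It was above them on every root array of El-0, at 3.72, 3.20 and 3.17 at sufficient and 3.57, 2.96 and 3.61 at low nitrate, and of SG063, at 3.80, 4.35 and 3.83 and then 3.45, 3.39 and 3.29. The lines differed with F = 31.5 (adjusted p = 3.64e-08, limma).

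CYP51G2 left the floor in KB006 roots, at 2.11, 3.47 and 2.49 at sufficient and 3.39, 4.30 and 3.86 at low nitrate, and no root array of another line was above 2.18. KB006 was 1.15 ± 0.11 SE above the other lines (adjusted p = 3.43e-08, limma). CYP71B34, CYP71B6, CYP71B29, CYP71B23, CYP71B28, CYP71B26 and CYP78A9 were called too, with F between 5.50 and 19.7. NG064 was highest for CYP71B23 (1.04 ± 0.18 SE above the other lines) and Fei-0 lowest (-1.12 ± 0.21 SE).

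The last question was whether the nitrate response itself differed between lines. In shoots no gene passed the test of line by nitrate interaction (limma), 1 had an unadjusted p below 0.05, and 1.11% of all probe sets were called. In roots 4 of the 22 genes passed, and 6 had an unadjusted p below 0.05, against 6.24% of all probe sets called. With all 72 arrays 0 passed, against 2.2% of all probe sets.

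CYP71B37 gave F = 8.25 (adjusted p = 0.00866, limma) and kept its call in 34 of 34 fits that left out 1 array. Its root response was -2.20 ± 0.29 SE in SG063, the line with the lowest level, and the other 5 lines were not called. The SG063 response was 1.96 ± 0.32 SE below the mean response of the other lines (adjusted p = 0.00257, limma).

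CYP71B23 gave F = 6.03 (adjusted p = 0.0282, limma). In El-0 roots it rose by 1.18 ± 0.32 SE, from 8.81, 7.53 and 8.12 to 9.58, 9.08 and 9.34, while the NG064 arrays read 10.73, 10.36 and 10.50 at sufficient and 9.50, 9.88 and 9.70 at low nitrate, a difference of -0.84 that was not called alone. Nor were the differences in Fei-0 (0.98), KB006 (0.20), SG063 (0.04) and NG087 (-0.67). The ranges at low nitrate were narrow, 8.61 to 9.88 over all lines, against 7.01 to 10.73 at sufficient nitrate. The call was kept in 29 of 34 fits that left out 1 array.

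CYP71B34 gave F = 5.39 (adjusted p = 0.0400, limma), with a Fei-0 response of -0.28 that was 1.57 ± 0.37 SE above the mean of the other lines. This rests on 2 arrays a group in Fei-0, and the call was kept in 20 of 34 fits and lost with quantile normalised arrays (F = 4.94). CYP51G2 gave F = 5.26 (adjusted p = 0.0429, limma), with a rise of 1.16 ± 0.20 SE in KB006 and other lines at the floor, and was kept in 5 of 34 fits.

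Within single lines, 31 of 132 shoot responses (22 genes in 6 lines) and 19 of 132 root responses were called. By line they numbered 5 in El-0, 1 in Fei-0, 6 in KB006, 7 in NG064, 6 in NG087 and 6 in SG063 in shoots, where 25.2%, 15.8%, 23.5%, 22.9%, 22.3% and 25.5% of all probe sets were called. In roots they numbered 2, 2, 3, 3, 2 and 7, against 14.1%, 9.88%, 25.6%, 24.4%, 18.7% and 21.9%. The 7 root calls of SG063 were CYP71B34 (-2.35), CYP71B37 (-2.20), CYP78A9 (upward), CYP71B26 (-1.02), CYP71B28 (-0.68), CYP84A4 (-0.62) and CYP71B22 (0.29), the last between values near its lowest. Leaving out 1 array at a time, the call of CYP71B22 was lost in 26 of 34 fits (0.13 to 0.37), those of CYP71B26 and CYP71B28 in 4 each, that of CYP78A9 in 2 and that of CYP84A4 in 1.

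Few other genes of the pathways in which P450s act could be named. A listed gene was taken only where its name was the symbol of a single-gene probe set, and 8730 probe sets were paired with no gene. Of 15 electron donor genes (reductases and cytochromes b5) and 17 other genes of abscisic acid metabolism 0 could be named on the array. From the remaining lists 23 genes could be named. Of these 11 rose and 2 fell in shoots, with a median of 0.47, and 5 rose and 5 fell in roots. Over all probe sets the shares were 28.0% up and 21.9% down in shoots and 23.6% and 19.1% in roots. For glucosinolates 4 of 40 were measured: UGT74B1, which adds the glucose, rose by 0.44 in shoots and BCAT4, which starts chain elongation of methionine, by 0.47, and 0 of 4 changed in roots.

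Of 28 other phenylpropanoid genes 8 were measured, and 4 rose in shoots and 3 in roots. DFR, the dihydroflavonol reductase of anthocyanin synthesis, rose by 3.10 ± 0.62 SE in shoots, and UF3GT, a glycosyltransferase of anthocyanins, by 1.72. In roots HCT, which makes shikimate esters for lignin, rose by 0.79 and CCR2, a cinnamoyl-CoA reductase, by 0.68. Among hormone genes the gibberellin receptor gene GID1B rose by 2.59 in shoots and 0.70 in roots. Of the other receptor genes, GID1A rose by 0.59 in shoots and fell by 0.52 in roots, and GID1C was not called in shoots (0.29) and fell by 0.64 in roots. The cytokinin response regulator gene ARR15 fell by 2.14 and 0.45. FACT, a caffeoyl transferase of suberin-linked waxes, rose by 2.94 and 0.68.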

How the data were processed

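Transcript levels were taken from the deposited table of log2 expression values per probe set, which the authors made from 72 Affymetrix arrays. Per the submitters' processing notes, affy, GCRMA and limma were used, and no version is stated. The sources used here do not say which arrays were normalised as 1 set. GCRMA removes background with a model of probe sequence, which leaves a floor of equal low values. Array medians were 5.72 to 6.04, with 25.1% to 27.8% of values within 0.1 of the floor. The number of arrays limits the precision.

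Of the probe sets, 13513 are paired with 1 gene, 503 with several and 8730 with none in the annotation table used; 13436 were matched to a gene table of TAIR10.1, used for symbols, locus tags and gene order. A group-means model over all 22746 probe sets was fitted with limma 3.58.1 in R 4.3.3, on 34 arrays per organ and on 68 arrays for organ contrasts, with lines weighted equally, and was tested on simulated data. Line differences and line by nitrate interaction used the moderated F test.

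Named genes are the members with the largest called values per comparison and all members with a known role; other genes came from pathway lists. Members, lists and the 4 arrays left out were chosen with earlier results of these data known. Alternatives were all 72 arrays, centred or quantile normalised arrays, a filter on dim probe sets (4 or more on at least 3 arrays), a trended robust prior, array weights, a replicate block and leaving out each array. No sequences are printed because none were among the sources used here.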

Additional observations from a re-analysis of the deposited data

Results flagged for a closer look

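The nitrate response of 4 genes differed between the 6 lines in roots by the moderated F test of limma. F was 8.25 for CYP71B37, where SG063 fell furthest, 6.03 for CYP71B23, where El-0 rose, Fei-0 was higher and NG064 and NG087 lower, all 3 without a call, 5.39 for CYP71B34, where Fei-0 moved least, and 5.26 for CYP51G2, where KB006 alone left the floor.

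The nitrate response of 12 of the 22 genes differed between shoots and roots by the organ by nitrate contrast of limma, against 43.5% of all probe sets. The shoot response exceeded the root response on the log2 scale by 1.61 for CYP71B23, 1.61 for CYP71B37, 1.31 for CYP71B34, 1.15 for CYP71B28, 0.88 for CYP71B26, 0.82 for CYP71B24 and 0.49 for CYP71B6. The difference, shoot minus root, was -1.32 for CYP78A9, -1.32 for CYP71B35, -1.06 for CYP71B36, -0.26 for CYP51G2 and -0.22 for CYP71B38. Groups of 3 arrays are too small for a test of single outlying arrays.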

How the results depend on the processing

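With each array centred on its median, called genes numbered 20 instead of 12 for nitrate in shoots and 15 instead of 5 in roots. In that setting 78.1% and 67.3% of all probe sets were called, so the added calls were not particular to these genes. For the organ by nitrate difference called genes numbered 20 instead of 12, against 71.4% of all probe sets, and within-line shoot calls 71 instead of 31. Genes called between organs numbered 19 instead of 14 at sufficient and 18 instead of 13 at low nitrate, against 86.9% and 77.8% of all probe sets. In the same setting the root differences of CYP71B36 and CYP71B5, at the floor and not called as deposited, turned to 0.0302 and 0.0262. With all 72 arrays as labelled, within-line calls fell to 12 in shoots and 10 in roots, line differences in shoots to 8, and root interactions to 0. For line differences in shoots and root interactions, 25.2% and 2.2% of all probe sets were called in that setting. The cause was not tested beyond the mismatch of the 4 Fei-0 arrays with their labels. The replicate block gave 12, 34, 0 and 13 calls in shoots (nitrate, within lines, interaction, line differences), 5, 19, 4 and 10 in roots, 14 and 13 for organs at sufficient and low nitrate, and 12 for organ by nitrate. It gained 3 within-line shoot calls, lost 2 and gained 2 within-line root calls, and changed no other call. Same-numbered arrays of the 2 supplies deviated together (correlation over 0.1) in 11 of 17 shoot pairs, against 8 of 32 pairs with different numbers, and in 5 of 17 root pairs, against 7 of 32. Same-numbered shoot and root arrays did so in 8 of 17 pairs at sufficient nitrate, against 4 of 32. At low nitrate they did so in 6 of 17, against 3 of 32. Since not every pair did, and not every array correlated best with its own number, the numbers were not taken as pairing. The shoot pairs and the pairs of shoot with root lean that way, and the organ fit treated all arrays as independent. The replicate block was 1 factor shared by all lines, so it did not check pairing within a line. Leaving out 1 array at a time gave 11 to 13, 28 to 33, 0 to 1 and 12 to 14 in shoots, 5 to 6, 15 to 22, 1 to 5 and 10 to 11 in roots, and 13 to 15, 13 to 14 and 12 to 13 for the organ contrasts. A Fei-0 group left with 1 array was assumed to vary like the other groups. Each gene had 1 probe set, so the choice of probe set could change nothing. Genes at the floor in an organ limit what can be seen of a fall.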

Other observations

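Some P450 probe sets lay outside the rule. A probe set shared by the tandem genes CYP71B20 and CYP71B19 rose in shoots at low nitrate by 0.87 ± 0.16 SE (adjusted p = 6.14e-05, limma) and fell in roots by 0.43 ± 0.14 SE (adjusted p = 0.0158, limma). In SG063 shoots its mean over both supplies was 10.79, against 8.53 to 10.44 in the shoots of the other lines. In SG063 roots it read 7.11 to 8.21 and in the roots of the other lines 3.75 to 6.19, with many of these arrays at a repeated low value of 4.51. Its root means were lower at low nitrate in every line except NG064 (4.26 at sufficient, 4.76 at low). SG063 roots were 2.91 ± 0.19 SE above those of the other lines, in the line where CYP71B37 was low. CYP718, whose symbol has no subfamily letter, was at the floor in all shoots and fell in roots at low nitrate by 1.82 ± 0.28 SE (adjusted p = 9.52e-06, limma). The probe sets of CYP71B30P and of the pair AT1G58265 and CYP79C2 were at the floor.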
